A study of Mus musculus with 3 samples.

Results

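A small fraction of bone marrow-derived macrophages carried high levels of interferon-stimulated transcripts in the control library and in the library taken at 1 hour of exposure to borrelial lipoproteins, before the stimulated culture had induced these genes as a whole. These interferon-high cells numbered 550 of the 11001 cells of the 2 libraries with 2000 or more unique molecular identifiers (UMIs, each a count of 1 captured RNA molecule), and the whole series held 15806 cells within the quality limits. They were chosen by their own readout: within each library, the UMIs of *Ifit1*, *Ifit2*, *Ifit3*, *Rsad2*, *Isg15* and *Cmpk2* were divided by all UMIs of the cell, and the top 5% of cells were taken. The comparison cells were those with 0 UMIs of the 6 genes, called zero cells here.

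The macrophages were grown from bone marrow of female C3H/HeN mice of 6 to 8 weeks of age with medium conditioned by L929 cells as the source of growth factor. The untreated library (labelled UI; Ctrl) came from macrophages given PBS, the LP1 library from macrophages given 1 µg/mL of purified *Borrelia burgdorferi* lipoproteins (*Bb*LP) for 1 hour, and the LP4 library from macrophages given the same dose for 4 hours. *Bb*LP are ligands of the TLR2 receptor and its partners. The study's methods give 4 hours as the time at which the PBS cells were collected, so LP1 and Ctrl also differ in collection time. The plots name LP1 and LP4 by their times. Each condition was 1 droplet library in which wells had been pooled, so condition and library cannot be told apart, cells are not replicates, and no p-value is given. Intervals are exact 95% intervals and cover counting error only.

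Type I interferons bind the IFNAR1 and IFNAR2 receptor chains, which activate the kinases JAK1 and TYK2. A complex that contains STAT2 and IRF9 then binds the interferon-stimulated response element in the promoters of antiviral genes. Macrophages in culture hold a constitutive low level of this signalling, and IRF7, itself an interferon target, is the factor that amplifies interferon production.

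The response element has as its core 2 GAAA blocks separated by 2 bases, and the promoter stretches that hold it are shown because it is the element through which type I interferon acts on its target genes. The motif searched was GAAA NN GAAA, N being any base, on both strands, with overlapping copies counted, in the 250 bases before and 50 bases after the start of each gene in RefSeq (mouse GRCm38.p6). The promoters of 4 of the 6 score genes held it. The 60 bases around the upstream copy nearest the start are printed 5′ to 3′ on the strand of the gene. They are given for those 4 and for 4 genes that the score did not use, picked among genes with a match. Capitals mark that copy alone, as the motif or its reverse complement. The window held 3 matches for *Isg15*, 2 each for *Ifit1* and *Ifit3*, and 1 for each other gene shown. It held 0 for *Irf7*, *Oasl1*, *Ifi47*, *AW112010*, *Phf11d*, *Rnf213*, *Daxx* and *Fcgr1*, which are named below. Further copies within the *Isg15* and *Ifit1* stretches are left in lower case.
Ifit1: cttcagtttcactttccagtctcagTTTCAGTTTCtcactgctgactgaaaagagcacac
Ifit3: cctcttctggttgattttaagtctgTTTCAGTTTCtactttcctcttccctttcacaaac
Rsad2: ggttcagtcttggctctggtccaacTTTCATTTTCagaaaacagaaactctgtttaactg
Isg15: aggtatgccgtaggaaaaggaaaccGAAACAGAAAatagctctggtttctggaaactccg
Cxcl10: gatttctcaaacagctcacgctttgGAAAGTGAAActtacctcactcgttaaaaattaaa
Stat2: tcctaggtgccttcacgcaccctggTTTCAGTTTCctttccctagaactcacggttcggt
Gbp2: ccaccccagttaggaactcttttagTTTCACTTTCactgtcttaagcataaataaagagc
Gbp2b: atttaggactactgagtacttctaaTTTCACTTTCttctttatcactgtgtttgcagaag

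The stretches lie at chr19:34640779-34640838 (*Ifit1*, plus strand), chr19:34583382-34583441 (*Ifit3*, plus), chr12:26456538-26456597 (*Rsad2*, minus) and chr4:156200850-156200909 (*Isg15*, minus). Those of the other genes lie at chr5:92349068-92349127 (*Cxcl10*, minus), chr10:128270251-128270310 (*Stat2*, plus), chr3:142620579-142620638 (*Gbp2*, plus) and chr3:142594685-142594744 (*Gbp2b*, plus). All 8 are upstream of the RefSeq start, with the marked motif between 49 (*Gbp2*) and 212 (*Stat2*) bases from it. In the GENCODE vM21 annotation *Gbp2* starts at 142620602, which lies inside its stretch. A match describes these letters in this window and is not evidence of binding.

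In Ctrl, 297 of 5949 cells were interferon-high, 3535 (59.4%) were zero cells and 2117 lay between. In LP1, 253 of 5052 were interferon-high, 2581 (51.1%) were zero cells and 2218 lay between. The lowest score among the interferon-high cells was 0.143% of UMIs in Ctrl and 0.117% in LP1. In Ctrl the 5 cells just inside the limit scored 0.1430 to 0.1488% and the 5 just outside 0.1403 to 0.1429%, and in LP1 the values were 0.1168 to 0.1186% and 0.1136 to 0.1159%. The limit therefore divided a continuous range. By contrast, 14 of 4625 LP4 cells had 0 UMIs of the 6 genes.

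The 6 genes encode antiviral proteins. IFIT1, IFIT2 and IFIT3 bind foreign RNA, viperin (*Rsad2*) makes a chain-terminating nucleotide together with the neighbouring gene product CMPK2, and ISG15 is a ubiquitin-like modifier. The interferon-high cells held 62.8% of all UMIs of these genes in Ctrl and 62.9% in LP1. Their summed level was 4799 CPM (UMIs of the genes per 1000000 UMIs) in the interferon-high cells of Ctrl and 4319 CPM in those of LP1, against 354 and 321 CPM over all cells of each library and 9667 CPM over all cells of LP4. An interferon-high cell of Ctrl carried 4 to 198 score UMIs (median 16.0) and an interferon-high cell of LP1 6 to 209 (median 24.0). UMIs of 4 or more of the 6 genes were found in 246 of the 297 interferon-high cells of Ctrl (82.8%, 78.0 to 86.9) and in 226 of the 253 of LP1 (89.3%, 84.9 to 92.8).

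**Figure D1:**
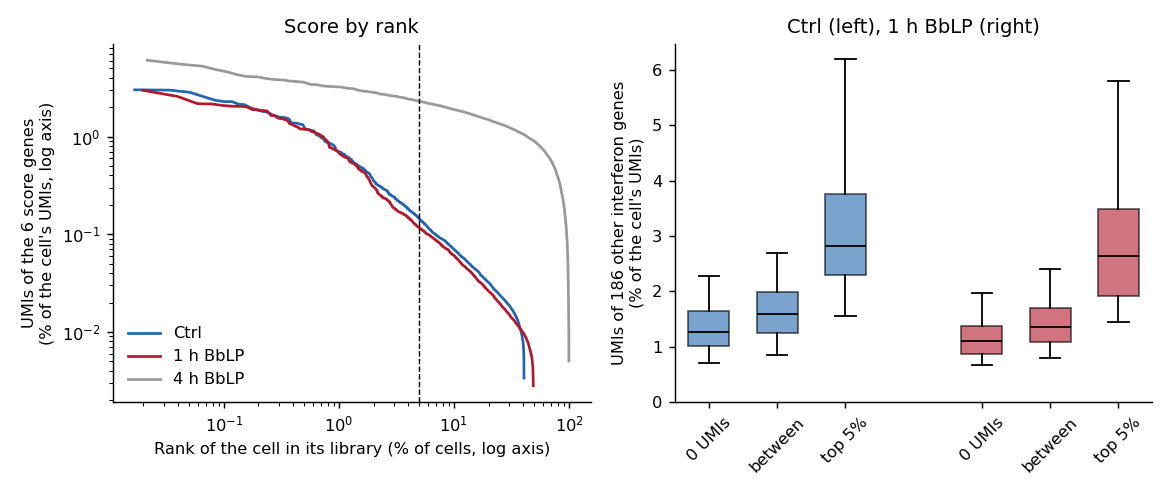
Left, percent of a cell's UMIs from the 6 score genes against the rank of the cell in Ctrl, LP1 and LP4 (1 line per library, both axes log, dashed line at the top 5%). Right, percent of a cell's UMIs from 186 other interferon-linked genes (boxes: median and quartiles, whiskers: 5th to 95th percentile) for zero cells, cells between and interferon-high cells of Ctrl and LP1. The median share of the 186 genes was 2.83% in the interferon-high cells of Ctrl against 1.27% in zero cells, and 2.64% against 1.10% in LP1.

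*Rsad2* had the most UMIs of the 6, at 2133 CPM in the interferon-high cells of Ctrl. Because the rule used these genes, each was measured again in cells chosen by the other 5. *Rsad2* then stood at 1991 against 17.9 CPM in Ctrl (log2 ratio 6.80, 6.64 to 6.95) and at 1770 against 9.28 CPM in LP1 (7.58, 7.39 to 7.77). *Isg15* had the smallest ratio, 564 against 26.3 CPM in Ctrl (4.42, 4.27 to 4.57) and 645 against 31.2 CPM in LP1 (4.37, 4.26 to 4.49). The other 4 genes lay between 5.79 (*Ifit3*, Ctrl) and 7.05 (*Cmpk2*, LP1). Each gene was thus higher in the cells that the other 5 had chosen, in both libraries.

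The UMIs of every cell were also divided at random into 2 sets, of which the first chose the cells and the second measured them. In the second set the score genes stood at 4591 CPM (4445 to 4742) against 70.1 CPM (65.4 to 75.0) in Ctrl, and at 4178 CPM (4064 to 4293) against 55.0 CPM (51.5 to 58.8) in LP1. The first set chose 253 of the 297 cells that all UMIs chose in Ctrl (85.2%) and 218 of the 253 in LP1 (86.2%).

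The interferon-high cells were close to the zero cells in depth. The median was 4668 UMIs and 1878 genes per interferon-high cell against 4939 and 1973 per zero cell in Ctrl, and 8480 and 2649 against 8891 and 2804 in LP1. Mitochondrial UMIs made up a median of 1.85% against 1.99% in Ctrl and 2.65% against 2.88% in LP1. The cells between had more UMIs, 5789 and 10108. Doublets were not called, and 15 interferon-high cells of Ctrl (5.05%) and 10 of LP1 (3.95%) had UMI counts above the 95th percentile of their library, against 3.08 and 3.22% of zero cells. Among cells of 2000 or more UMIs, 9 barcodes occurred in Ctrl and in LP1, and 0 of these were interferon-high in either.

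Of 7316 genes with 10 CPM or more in each library, score genes left out, a gene was called where the ratio of interferon-high to zero cells was 2-fold or more and its counting interval left out 0. In Ctrl 151 genes were called higher (2.06%) and 90 lower (1.23%). In LP1 169 were called higher (2.31%) and 62 lower (0.847%). The genes called in both libraries were 135 higher (1.85%) and 17 lower (0.232%). This contrast is the one that chose the cells, so the counts are descriptions. The 10 CPM minimum was taken over all cells of a library. A gene scarce in zero cells could therefore pass it through the interferon-high cells. *Cxcl10* (9.97 CPM) and *Ifi47* (6.68 CPM), for example, were below it in the zero cells of Ctrl. The counts, shares and choice of named genes that rest on these calls carry this limit. The higher genes were largely common to the libraries: 89.4% of the Ctrl calls and 79.9% of the LP1 calls were called in the other library, and 0 genes were called in opposite directions. Of the lower calls, 18.9 and 27.4% were shared.

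Across the 7316 genes the log2 ratios of the 2 libraries, which share no cells, correlated with Pearson's r = 0.796 and Spearman's rho = 0.590. The values were 0.911 and 0.765 over the 2971 genes at 50 CPM or more, and 0.703 and 0.572 over the 7200 genes outside the interferon lists. These are correlations across genes, which are not independent, and the same lists and gene abundances enter each axis. The median gene stood at -0.10 in Ctrl and -0.09 in LP1.

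**Figure D2:**
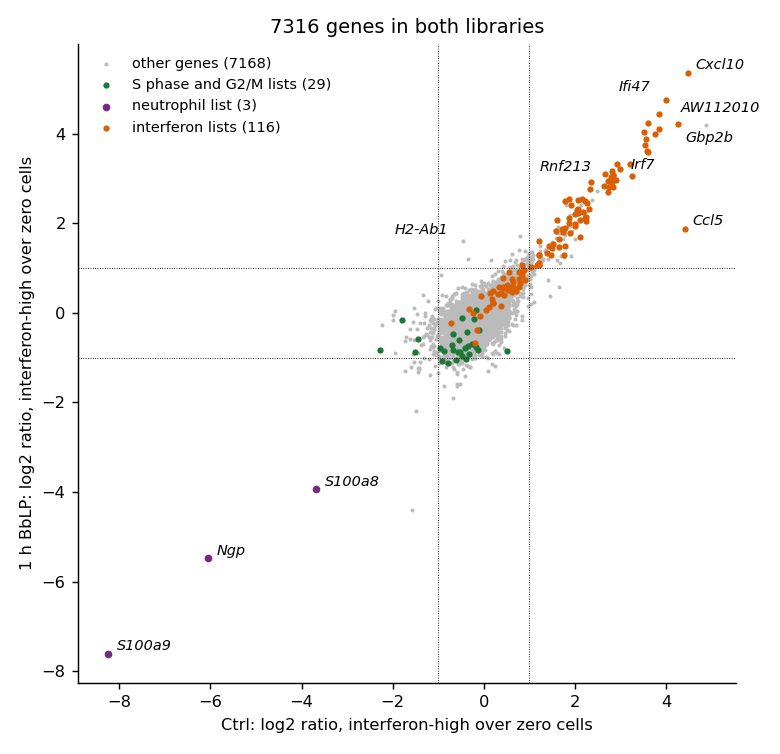
Log2 ratio of interferon-high over zero cells for 7316 genes in Ctrl (x axis) and LP1 (y axis), with interferon lists in orange, S phase and G2/M genes in green and neutrophil genes in purple, and dotted lines at 2-fold. The orange genes run along the diagonal up to *Cxcl10* (4.48 and 5.35), *Ccl5* (4.42 and 1.88) and *H2-Ab1* (-0.46 and 1.60) lie off it, and *S100a9* (-8.24 and -7.61) lies at the lower end.

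Lists of interferon-linked genes by role held 189 genes of the tables, of which 160 in Ctrl and 159 in LP1 had 20 or more UMIs in the 2 groups of cells. Of these, 114 were at least 2-fold higher with an interval off 0 in Ctrl and 113 in LP1, and 0 were lower in either. By the same 20-UMI rule 2.75% of 11887 genes were higher and 2.06% lower in Ctrl, and 3.09% of 12072 genes were higher and 2.33% lower in LP1. A scarce gene can reach this minimum through the interferon-high cells in which it is high, and 13 list genes in each library did, so the lists were also read with the minimum on the zero cells alone, a rule chosen after the data were seen. By that rule 101 of 147 genes were higher in Ctrl and 100 of 146 in LP1, with medians of 1.78 and 1.88, against 2.52 and 2.84% of all genes. The median over the 160 and 159 genes was 2.00 and 2.04. Of the 135 genes called in both libraries, 76 belonged to these lists and 59 did not.

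**Figure D3:**
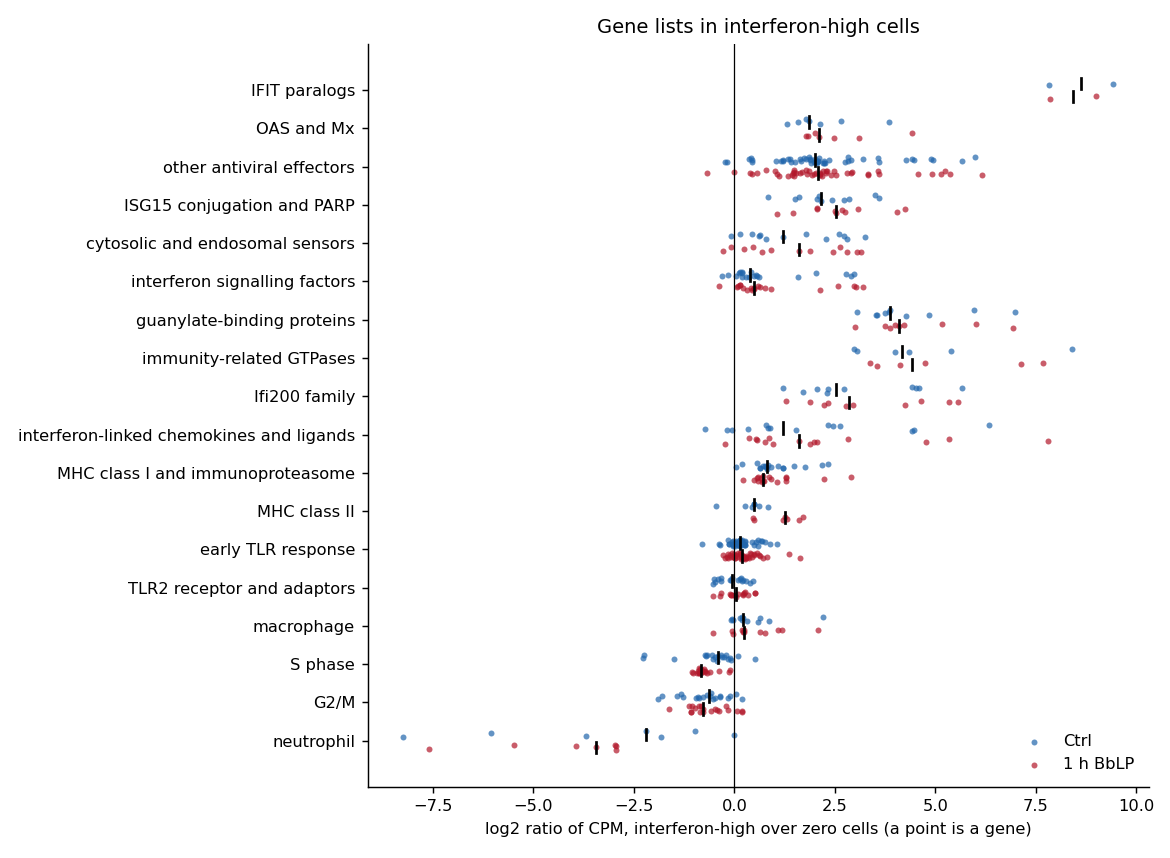
Log2 ratio of interferon-high over zero cells for the genes of each list (points, genes with 20 or more UMIs) with the list median (line), in Ctrl and LP1. Genes with 0 UMIs in 1 group are drawn at the limit that 3 counts allow, and the points include genes that reached 20 UMIs through the interferon-high cells. The GTPase families, with medians of 3.86 to 4.43, stood above the other interferon lists outside the IFIT paralogs, and the early TLR response stood near 0.

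The catalytic members of the 2′-5′ oligoadenylate synthetase family activate RNase L on double-stranded RNA. The 7 list genes of this family that had enough UMIs, catalytic or not, were higher in each library. *Oasl1* stood at 357 against 24.9 CPM in Ctrl (3.84, 3.66 to 4.01) and at 293 against 13.6 CPM in LP1 (4.43, 4.24 to 4.62). *Oas3*, the most abundant catalytic member by UMIs, stood at 295 against 81.2 CPM (1.86) and 218 against 54.5 CPM (2.00). *Oas1c* was the smallest difference in Ctrl, at 16.4 against 6.58 CPM (1.32, 0.66 to 1.93).

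Of the other antiviral effectors with 20 UMIs in the zero cells, 40 of 46 were higher in each library, with medians of 2.00 and 2.01. *Isg20*, a 3′ exonuclease for single-stranded RNA, was close to absent from zero cells: 126 UMIs in the interferon-high cells of Ctrl against 24 in the far larger group of zero cells (5.98, 5.34 to 6.67), and 141 against 35 in LP1 (5.36, 4.82 to 5.94). *Slfn5* stood at 878 against 218 CPM in Ctrl (2.01) and 850 against 184 CPM in LP1 (2.21). *Ifi44* stood at 428 against 56.8 CPM (2.91) and 406 against 40.7 CPM (3.32).

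*Ifitm3*, which blocks viral fusion in endosomes, stood at 1805 against 687 CPM in Ctrl (1.39) and 1243 against 496 CPM in LP1 (1.33). Some other effectors with high levels in the zero cells fell short of 2-fold. *Ifitm2* had ratios of 0.45 and 0.39, *Slfn2* of 0.44 and 0.56 and *Ifi27l2a* of 0.37 and 0.43. These 3 genes were at 482 to 1718 CPM in the zero cells of Ctrl. *Ifi27* had ratios of -0.19 (-0.48 to 0.09) and -0.68 (-0.96 to -0.42).

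The PHD finger genes *Phf11b* and *Phf11d* were at 119 against 9.92 CPM (3.59) and 90.5 against 7.64 CPM (3.57) in Ctrl, with ratios of 3.58 and 3.61 in LP1. They are close copies, as are the TRIM30, IFIT and guanylate-binding genes, so reads may be divided among members of each family. The IFIT paralogs *Ifit1bl1* (9.43 and 8.99) and *Ifit3b* (7.84 and 7.85) are near-identical to score genes and are not an independent readout.

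The ISG15 conjugation and PARP genes were higher in 10 of 11 cases in Ctrl and 11 of 11 in LP1. *Usp18*, the protease that removes ISG15 and also dampens IFNAR2 signalling, stood at 103 against 8.55 CPM in Ctrl (3.59, 3.28 to 3.91) and at 112 against 5.95 CPM in LP1 (4.24, 3.94 to 4.53). *Herc6*, the mouse ligase for ISG15, had ratios of 3.51 and 4.04. *Parp14*, a mono-ADP-ribosyltransferase, stood at 887 against 124 CPM (2.84) and 732 against 87.4 CPM (3.07), and 94.9 and 96.4% of interferon-high cells had at least 1 UMI of it, against 42.7 and 48.2% of zero cells. *Trim25* fell short of 2-fold in Ctrl (0.84) and passed in LP1 (1.06).

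Among sensors, the cytosolic RNA receptors were higher and the DNA-sensing pair was not called. *Ddx58* (RIG-I) stood at 211 against 30.2 CPM in Ctrl (2.81) and 181 against 20.2 CPM in LP1 (3.16). *Ifih1* (MDA5) had ratios of 2.27 and 2.45, *Dhx58* (LGP2) of 2.74 and 2.81, *Zbp1* of 3.25 and 3.06, and the endosomal RNA receptor *Tlr3* of 2.60 and 2.62. *Cgas*, which makes cyclic GMP-AMP on DNA, had 0.79 (0.29 to 1.26) and 0.90 (0.55 to 1.24), and its partner *Tmem173* (STING) had 0.14 (-0.85 to 0.99) and 0.24 (-0.51 to 0.91). *Mavs*, the adaptor of RIG-I and MDA5, had 0.43 (-0.39 to 1.15) and -0.29 (-1.15 to 0.47). In all, 7 of 13 sensor genes passed in each library.

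The signalling factors divided in the same way, with 5 of 20 past 2-fold in each library and medians of 0.39 and 0.49. *Irf7* stood at 450 CPM against 57.2 CPM in Ctrl (2.98, 2.84 to 3.11) and at 341 against 36.9 CPM in LP1 (3.21, 3.07 to 3.34). *Stat2* stood at 131 against 17.6 CPM (2.90) and 106 against 13.5 CPM (2.97). *Irf9*, its partner in that complex, was at 0.56 (0.16 to 0.93) and 0.90 (0.58 to 1.22). The receptor chains *Ifnar1* (0.18 and 0.31) and *Ifnar2* (0.11 and 0.13) and the kinase *Jak1* (0.04 and 0.07) differed little between interferon-high and zero cells; the upper bound of their intervals did not pass 0.45 in any of them. *Irf3*, which acts before interferon is made, had 0.30 (-0.34 to 0.89) and 0.42 (-0.14 to 0.94), and *Irf1* had 0.50 and 0.63.

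Transcripts of the ligands were close to absent. *Ifnb1* had 2 UMIs in all cells of Ctrl, 1 of them in an interferon-high cell, and 10 UMIs in LP1, 2 of them in interferon-high cells, against 96 in LP4. *Ifng* had 0 UMIs in Ctrl and 1 in LP1. The interferon alpha, lambda and epsilon genes of the list had 0 UMIs in all 3 libraries. At this depth no difference between the groups of cells could be detected for any ligand.

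The guanylate-binding proteins, GTPases that attack the membranes of vacuoles and bacteria, had 10 genes with 20 UMIs in Ctrl and 9 in LP1, of which 4 and 3 reached that number through the interferon-high cells. The 6 that had 20 UMIs in the zero cells were higher in each library, with medians of 3.66 and 3.94. *Gbp2b* stood at 172 against 8.95 CPM (4.26, 3.99 to 4.54) and 158 against 8.54 CPM (4.21, 3.97 to 4.46). *Gbp2* had ratios of 3.53 and 3.74, *Gbp3* of 3.84 and 4.09, *Gbp5* of 3.56 and 3.88 and *Gbp7* of 3.75 and 4.00. Each of the 5 was seen in at least 33.0% of interferon-high cells of Ctrl.

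The immunity-related GTPases, which act on pathogen vacuoles, were higher in 5 of 5 genes with 20 UMIs in the zero cells in Ctrl and 4 of 4 in LP1, with medians of 3.99 and 3.83. The others that reached 20 UMIs did so through the interferon-high cells, *Iigp1* among them. *Iigp1* had 112 UMIs in the 297 interferon-high cells of Ctrl against 4 in the 3535 zero cells (8.39), and 162 against 8 in LP1 (7.69). *Ifi47* stood at 106 against 6.68 CPM (3.99) and 110 against 4.11 CPM (4.74). *Irgm1*, a regulator of the family, had the smallest ratios, 2.98 and 3.38. These families of GTPases were scarce in absolute level: their sums in interferon-high cells were 868 CPM (GBP) and 355 CPM (IRG) in Ctrl.

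The Ifi200 family of DNA-binding proteins was higher in 8 of 8 genes with 20 UMIs in the zero cells in each library, with medians of 2.32 and 2.54. *Ifi203* stood at 509 against 77.4 CPM (2.72) and 504 against 65.1 CPM (2.95), and *Mndal* at 717 against 219 CPM (1.71) and 770 against 211 CPM (1.87). The annotated spans of *Mndal*, *Ifi211* and *Ifi203* overlap, so their counts are uncertain. *Aim2*, the inflammasome sensor of the same family, was lower in ratio, at 0.61 and 0.47.

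*Cxcl10*, the ligand of the T cell receptor CXCR3, stood at 222 CPM (200 to 246) against 9.97 CPM (8.62 to 11.5) in Ctrl, a log2 ratio of 4.48 (4.23 to 4.74), and at 269 CPM (249 to 291) against 6.62 CPM (5.65 to 7.71) in LP1, a ratio of 5.35 (5.10 to 5.60). It was confined to a minority of the interferon-high cells, with UMIs in 73 of 297 (24.6%) and 66 of 253 (26.1%) against 3.25 and 3.14% of zero cells, and its level was uneven among them. *Il15*, which sustains NK and memory T cells, stood at 261 against 42.2 CPM (2.63) and 309 against 43.5 CPM (2.83), and its receptor chain *Il15ra* had 2.45 and 2.05. *Tnfsf10* (TRAIL) had 27 UMIs against 4 (6.34, 4.82 to 8.32) and 44 against 2 (7.81, 5.87 to 10.90). In each library *Tnfsf10* reached the UMI minimum for list genes only through the interferon-high cells, so its ratios rest on very few zero-cell UMIs. *Ccl5* had ratios of 4.42 (4.04 to 4.81) and 1.88 (1.52 to 2.24), and 1 cell held 38.4% of its UMIs among the interferon-high cells of Ctrl and 1 cell 21.1% in LP1. The inflammatory chemokine *Ccl2* was at -0.07 (-0.37 to 0.23) and 0.37 (0.23 to 0.50).

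Genes of MHC class I presentation were higher by less. The peptide transporter *Tap1* (2.18 and 2.24), the transactivator *Nlrc5* (2.34 and 2.91) and the immunoproteasome subunits *Psmb8* (1.21 and 1.07), *Psmb9* (1.22 and 1.28) and *Psmb10* (1.48 and 1.28) passed 2-fold in each library. The classical heavy chains and β2-microglobulin did not: *H2-K1* stood at 540 against 350 CPM (0.63) and 579 against 387 CPM (0.58), *H2-D1* at 0.20 and 0.22, and *B2m* at 0.70 and 0.48. Of all genes with 20 UMIs, 2.75% were higher in Ctrl and 3.09% in LP1. MHC class II genes, which are induced through CIITA, were called higher in 0 of 7 cases in Ctrl and 5 of 7 in LP1. The LP1 values rested on few cells, since 1 cell held 41.2% of *H2-Ab1* and 39.3% of *H2-Aa* UMIs among the interferon-high cells.

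Outside the lists, 59 genes were higher in both libraries, and the ones named here were chosen after their values were seen, except *AW112010* and *Fcgr1*, which the naming rule gave. *AW112010*, a transcript known from activated macrophages, stood at 250 against 8.55 CPM (4.87) in Ctrl and 127 against 6.90 CPM (4.20) in LP1, with 12.7% of its Ctrl UMIs in 1 cell. *Rnf213*, a large ubiquitin ligase that acts on bacteria, stood at 603 against 81.9 CPM (2.88) and 527 against 62.2 CPM (3.08). *Pml* (2.49 and 2.72) and *Daxx* (2.38 and 2.51) encode components of nuclear bodies. *Samhd1*, which depletes nucleotides, had 1.57 and 1.84, the necroptosis effector *Mlkl* 1.63 and 1.49, and *Il18*, an inflammasome substrate, 1.70 and 1.78.

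*Fcgr1*, the high-affinity IgG receptor and a macrophage marker, stood at 355 against 76.6 CPM (2.21, 2.07 to 2.35) in Ctrl and 309 against 72.9 CPM (2.08, 1.96 to 2.20) in LP1. The phosphodiesterase gene *Pde7b* was abundant, at 699 against 189 CPM (1.89) and 644 against 167 CPM (1.94). *Acod1*, which makes itaconate, had 1.05 and 1.17, and the receptor tyrosine kinase *Axl* 1.70 and 1.26. The 12 macrophage markers had medians of 0.21 and 0.25, with 9 above 0 and 3 below 0 in each library. The lowest was -0.09 in Ctrl and -0.54 in LP1. They summed to 13718 against 11900 CPM in Ctrl and 14696 against 12392 CPM in LP1. Among them, *Lyz2* (0.19 and 0.25), *Csf1r* (0.20 and 0.25), *Adgre1* (0.15 and 0.18) and *Cd68* (-0.04 and -0.04) were near equal between the groups. The complement genes *C1qa* (0.58 and 1.18) and *C1qb* (0.86 and 1.09) passed in LP1 and not in Ctrl. The ratio of *C1qa* was larger in LP1 by 0.59 (0.28 to 0.90), and that of *C1qb* by 0.23 with an interval that held 0 (-0.10 to 0.56). Over all genes with 20 UMIs, 2.75% were higher in Ctrl and 3.09% in LP1. Of the monocyte markers, 1 was called higher in each library, with list medians of 0.92 over 4 genes and 0.71 over 5, and these are named after their values were seen. In Ctrl it was *Plac8*, with 25 UMIs against 41 (2.87, and 0.15 in LP1), and in LP1 the receptor *Ccr2* (0.70 and 1.18), whose difference between libraries was 0.48 (-0.03 to 0.99). The 5 monocyte markers summed to 233 against 219 CPM and 243 against 201 CPM.

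The summed level of neutrophil markers was far lower in the interferon-high cells than in the zero cells, while the shares of cells with *S100a8* were closer. The 9 neutrophil markers summed to 19.4 CPM against 479 CPM in Ctrl and 12.6 against 496 CPM in LP1. *S100a9*, a subunit of calprotectin, had 1 UMI against 3634 in Ctrl and 3 against 5986 in LP1. *S100a8* had 30 against 4627 and 27 against 4240. By share of cells, *S100a8* was seen in 9.09 against 11.5% in Ctrl and 9.49 against 11.4% in LP1. The shares for *S100a9* were 0.337 against 1.02% in Ctrl and 1.19 against 1.12% in LP1. Interferon-high cells with 5 or more neutrophil marker UMIs numbered 0 of 297 and 0 of 253 (up to 1.23 and 1.45%). Among zero cells they numbered 20 of 3535 (0.566%) and 19 of 2581 (0.736%), shares below those limits. *Ngp* had 1 against 801 UMIs, and 0 against 1369, and was seen in 0.566 and 0.620% of zero cells. *Lcn2* had 11 against 393 UMIs in Ctrl, with 81.8% of the 11 in 1 cell, and 0 against 645 in LP1, and its Ctrl ratio of -1.57 became 0.40 when cells rich in cell cycle UMIs were left out. Lymphoid and erythroid markers had 0 UMIs in the interferon-high cells of each library. Zero cells had 4 and 5 lymphoid and 1 and 0 erythroid UMIs, too few to compare the groups. Dendritic cell markers were at 57.1 against 90.7 CPM and 54.6 against 98.2 CPM. Plasmacytoid dendritic cell markers were at 231 against 184 CPM and 250 against 178 CPM. Of these 5 markers only 1 had 10 CPM or more in each library, and 0 were called. B cell markers were at 16.4 against 10.2 CPM and 15.9 against 9.22 CPM. Basophil or mast cell markers were at 1.22 against 4.86 CPM and 4.89 against 4.67 CPM. Stromal markers were at 0 against 6.32 CPM and 0.408 against 10.0 CPM.

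A minority of cell cycle genes were called lower. Of 20 S phase genes, 3 were called lower in Ctrl and 2 in LP1, with medians of -0.41 and -0.83. Of 20 G2/M genes 5 were called lower in each, with medians of -0.64 and -0.78. Over all genes with 20 UMIs, 2.06% were called lower in Ctrl and 2.33% in LP1. Without cells rich in cell cycle UMIs the G2/M medians, over the 13 genes that kept 20 UMIs, were -0.04 and 0.15, so the direction turned in LP1, and the S phase medians were -0.38 and -0.30. In the top 1% of cells the G2/M genes summed to 185 CPM against 606 CPM in zero cells in Ctrl, but to 749 CPM (669 to 837) against 686 CPM in LP1. *Top2a*, the topoisomerase of dividing cells, was at -0.78 and -1.12 (0.35 in LP1 without cells rich in cell cycle UMIs), and *Mki67* at -0.37 and -0.44. Cells with 10 or more UMIs of the 40 genes made up 9.09% (6.08 to 13.0) of interferon-high cells against 14.4% (13.2 to 15.6) of zero cells in Ctrl, and 17.8% (13.3 to 23.1) against 26.7% (25.0 to 28.4) in LP1. The lower genes called in both libraries included the kinetochore scaffold *Knl1* (-1.44 and -1.32), the formin *Diaph3* (-1.44 and -1.24), *Nes* (-1.49 and -2.19), *Cd24a* (-1.74 and -1.30), *Asap2* (-1.43 and -1.25) and *Col24a1* (-1.43 and -1.23). *Fn1*, fibronectin, was the most abundant of them outside the neutrophil genes, at 37.1 against 108 CPM (-1.54) and 55.0 against 118 CPM (-1.10).

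Most other lists stayed near the median gene. The cytosolic ribosomal protein genes had medians of 0.01 and 0.05, nuclear respiratory genes -0.06 and -0.04, mitochondrially encoded genes -0.22 and -0.26 and cholesterol synthesis genes 0.07 and 0.15, with 0 genes called in any of these 4 lists. Unfolded protein and heat shock genes had -0.12 and -0.09. Of 14 such genes, 0 were called in Ctrl and 1 was lower in LP1, where 2.33% of all genes with 20 UMIs were lower. Of 2 lists that the study picked from these libraries, and that are not independent of them, the phagocytosis genes stood above the median gene and the antigen presentation genes below it. The 8 phagocytosis genes were above 0 in each library, with medians of 0.53 and 0.58. Of these 8, 1 was called higher, *Ccl4*, where 2.75 and 3.09% of all genes with 20 UMIs were higher. The 6 antigen presentation genes were below 0 in each, with medians of -0.29 and -0.30 and 0 called. *Lpl*, lipoprotein lipase, was at -0.50 and -0.55.

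In per-cell terms, 186 interferon-linked genes outside the score and the IFIT paralogs made up 1.29 to 9.96% of the UMIs of an interferon-high cell in Ctrl (median 2.83%), and 0.974 to 7.80% in LP1 (median 2.64%). Zero cells ranged from 0.315 to 3.86% (median 1.27%) and from 0.349 to 4.02% (median 1.10%), so the ranges overlapped. In Ctrl 224 interferon-high cells (75.4%) and in LP1 184 (72.7%) lay above the 95th percentile of the zero cells. Within the interferon-high cells this share correlated with the score with Spearman's rho = 0.60 over 297 cells and 0.64 over 253 cells, where both quantities share the cell's depth.

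After each cell was thinned to 2000 UMIs, *Irf7* was seen in 51.9% (46.0 to 57.7) of interferon-high cells against 10.2% (9.18 to 11.2) of zero cells in Ctrl, and in 40.3% (34.2 to 46.6) against 7.32% (6.35 to 8.40) in LP1. *Gbp2* was seen in 30.0 against 3.65% and in 24.1 against 2.60%. *Cxcl10* was seen in 17.8 against 1.87% and in 19.0 against 1.32%. Free RNA can give such UMIs in cells that do not express a gene, and the 23 and 20 cells with neutrophil markers were thinned alike. *Gbp2* was seen in 0 of 23 (up to 14.8%) and 0 of 20 (up to 16.8%) of these, and *Irf7* in 3 and 0. *Cxcl10* was seen in 3 of 23 (13.0%, 2.78 to 33.6) and 4 of 20 (20.0%, 5.73 to 43.7), intervals that hold its share in interferon-high cells. The shares of *Gbp2* in interferon-high cells were above these intervals, and that of *Irf7* was above in each library. However, 20 of the 23 and 19 of the 20 were zero cells, chosen for 0 UMIs of the score genes. Their low shares of interferon genes therefore depend on that choice, and the part of free RNA was not tested.

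The interferon lists followed the rank of the score over its whole range. The summed level of the 186 genes was 48765 CPM in the top 1% of Ctrl cells, 29433 CPM at 1 to 2.5%, 23918 CPM at 2.5 to 5%, 20575 CPM at 5 to 10%, 15037 CPM in the other cells with a score UMI and 12700 CPM in zero cells. In LP1 the same steps were 44325, 27996, 20880, 18378, 13130 and 11165 CPM. Each step was larger than the counting intervals in each library. The steps were steeper for the guanylate-binding proteins, from 2367 (2192 to 2552) to 62.6 CPM (59.2 to 66.2) in Ctrl and from 2199 to 48.5 CPM in LP1.

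*Cxcl10* was concentrated at the top: 878 CPM in the top 1% of Ctrl cells, 146 CPM in the next step, then 46.4 and 25.4 CPM, and 8.71 CPM in the other cells with a score UMI, where the zero cells stood at 9.97 CPM. In LP1 it stood at 1109, 191 and 37.1 CPM in the 3 highest steps and at 7.14 and 6.62 CPM in the 2 lowest. *Irf7* rose more evenly, from 57.2 CPM in zero cells to 110, 235, 325, 445 and 825 CPM in Ctrl. Between zero cells and the other cells with a score UMI, *Irf7* thus differed beyond its counting interval in Ctrl, while the intervals of *Cxcl10* overlapped (8.62 to 11.5 and 7.15 to 10.5 CPM).

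**Figure D4:**
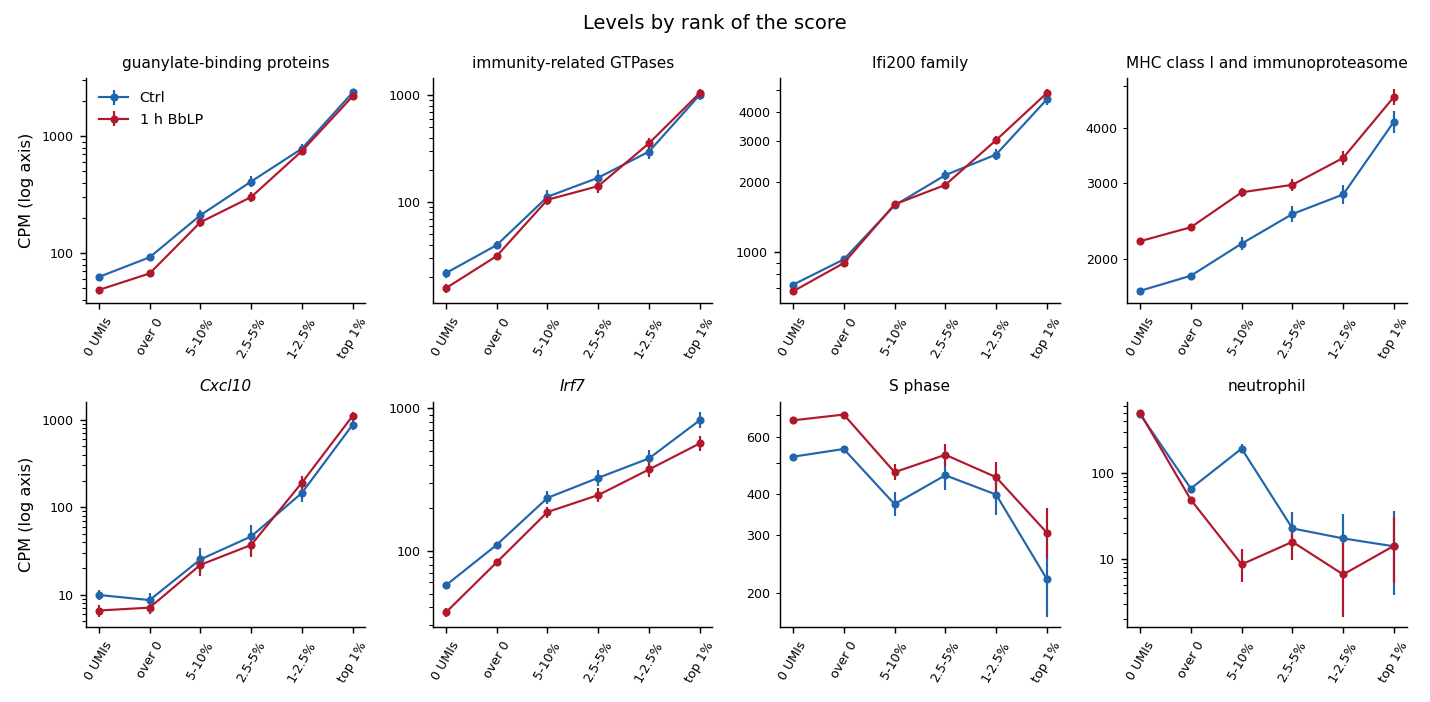
Levels in CPM (log axis) by rank of the score in Ctrl and LP1, from zero cells to the top 1% of cells, with exact 95% counting intervals. The 4 interferon lists and *Irf7* rise at every step, *Cxcl10* rises from the 5 to 10% step on to 878 and 1109 CPM, and the S phase genes are lowest in the top 1%.

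The TLR response itself was examined next, since LP1 had been exposed to the lipoproteins for 1 hour. Among 44 early TLR response genes, 1 was called higher in interferon-high cells of Ctrl and 2 in LP1, with medians of 0.14 and 0.20. Of the 17 receptor and adaptor genes, 0 were called. By the same 20-UMI rule 2.75 and 3.09% of all genes were higher, so these counts do not set either list apart. *Tlr2* stood at 0.17 and 0.23, *Myd88* at 0.19 and 0.51, *Tnf* at -0.14 and -0.23 and *Nfkbia*, the NF-κB inhibitor, at -0.04 and 0.00. *Ccl4* was called in each library, at 222 against 106 CPM (1.06, 0.89 to 1.22) and 644 against 252 CPM (1.35, 1.27 to 1.43).

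The difference between LP1 and Ctrl was then taken within each group of cells, for 43 genes. The median log2 ratio of LP1 over Ctrl was 0.24 in interferon-high cells and 0.16 in zero cells, and the median difference between the groups was -0.00, with a range of -0.32 to 0.31. *Cebpb* had the largest ratio in each, 97.2 to 362 CPM in interferon-high cells (1.90, 1.65 to 2.15) and 101 to 353 CPM in zero cells (1.80, 1.73 to 1.88). *Junb* had 1.11 (1.01 to 1.21) and 1.01 (0.97 to 1.04), and *Cxcl1* 0.97 (0.86 to 1.09) and 0.90 (0.87 to 0.93). The difference between groups was beyond its counting interval for 8 genes. This count was not taken over all genes tested, so it is a description and does not set the list apart. The difference was above 0 for *Ccl4* (0.30), *Il1b* (0.28), *Ier3* (0.26), *Fosb* (0.27), *Icam1* (0.30) and *Marcksl1* (0.31). It was below 0 for *Dusp2* (-0.24) and *Atf3* (-0.19). For 148 interferon list genes the median of LP1 over Ctrl was -0.08 in interferon-high cells and -0.21 in zero cells.

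**Figure D5:**
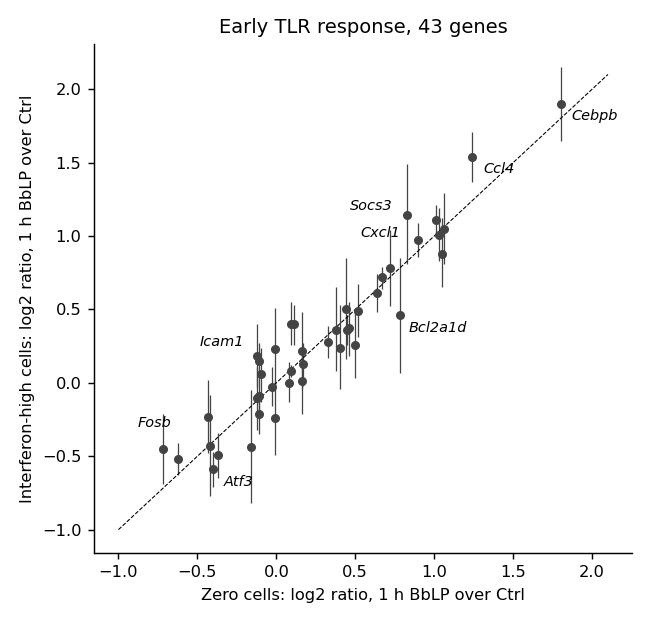
Log2 ratio of LP1 over Ctrl for 43 early TLR response genes in zero cells (x axis) and in interferon-high cells (y axis, with exact 95% counting intervals), with a dashed line of equality. The genes lie along the line from about *Fosb* (-0.72 and -0.45) to *Cebpb* (1.80 and 1.90).

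The ratios of some called genes differed between the libraries. Of 320 genes called in either library, 33 differed between LP1 and Ctrl by 1 or more on the log2 scale with an interval off 0. A call in only 1 library favours such a difference, and the count was not taken over all genes tested, so it is a description. *Ccl5* differed by -2.54 (-3.05 to -2.03) and *H2-Ab1* by 2.06 (1.23 to 2.89), the genes of which single cells held large shares. For *Cxcl10* the 2 intervals did not meet (4.23 to 4.74 and 5.10 to 5.60), and the ratio was higher in LP1. Cells of LP1 had more UMIs, which made 0 UMIs a stricter limit there. The part of depth in these differences was not tested.

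For reference, the ratio of all LP4 cells over all Ctrl cells is set beside the Ctrl ratio, which shares the Ctrl cells with it. *Cxcl10* had 5.52 against 4.48, *Gbp5* 5.21 against 3.56, *Rnf213* 3.07 against 2.88 and *Stat2* 3.14 against 2.90. Other genes that were high in interferon-high cells had LP4 ratios near 0: *Ifitm3* -0.08 against 1.39, *Oas3* 0.06 against 1.86, *Irf7* 0.40 against 2.98 and *Psmb10* 0.01 against 1.48. *Pde7b* had -1.93 against 1.89. *Ch25h*, cholesterol 25-hydroxylase, had 10.48 in LP4 over Ctrl and 1 UMI in the interferon-high cells of Ctrl against 0 in zero cells.

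The response element core was found in the promoters of 63 of 152 interferon list genes with a RefSeq promoter (41.4%), against 1079 of 27025 genes (3.99%) in all and 232 of 5900 genes tested (3.93%). Among list genes, 27 of 59 that were called higher in both libraries held it (45.8%, 32.7 to 59.2). Of those tested and not called, 6 of 33 held it (18.2%, 6.98 to 35.5), and the intervals overlap. Of the higher genes outside the lists, 7 of 49 held it (14.3%, 5.94 to 27.2), and of the lower genes 0 of 13. By family, 5 of 5 guanylate-binding protein genes held it, 9 of 11 of the Ifi200 family and 5 of 6 immunity-related GTPases. It was in 1 of 9 chemokine and ligand genes and 3 of 18 signalling factors. Only 1 of 7 ISG15 conjugation and PARP genes held it, though nearly all of that list were higher. The other lists had 4 of 6 (OAS), 15 of 45 (other effectors), 3 of 10 (sensors), 4 of 16 (MHC class I) and 3 of 3 (IFIT paralogs). Of the interferon ligand genes, which had almost no UMIs, 10 of 16 held it.

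Many of the higher genes were neighbours in the genome (GENCODE vM21, GRCm38). Of the 135 genes called higher in both libraries, 51 (37.8%) had another of them within 100 kb, against 217 of 7177 other tested genes (3.02%) that had one of the 135 that near. They formed 19 runs. The longest, at chr1:173723427-173982744, held *Ifi207*, *Ifi204*, *Mndal*, *Ifi211*, *Ifi203* and *Ifi202b*. The next, at chr3:142493978-142638008, held *Gbp5*, *Gbp7*, *Gbp3*, *Gbp2b* and *Gbp2*. Runs of 3 included *Parp14*, *Dtx3l* and *Parp9* at chr16:35832874-35972605, *Psmb9*, *Tap1* and *Psmb8* at chr17:34181987-34201454, and *Slfn5*, *Slfn9* and *Slfn8* at chr11:82951349-83020810. Several runs are duplicated families, whose members can share reads.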

How the data were processed

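The 3 deposited matrices hold UMI counts per gene and barcode that the authors made with Cell Ranger (version 7.1.0 in the submitters' processing notes) on an mm10 annotation from reads of a 3′ droplet kit. The deposited counts are not normalized and sum to 35749924 (Ctrl), 52773906 (LP1) and 64787139 (LP4). Barcodes with over 500 UMIs, over 500 genes and under 5% mitochondrial UMIs were kept, the limits that the study's methods give, leaving 6071 of 6123, 5065 of 5119 and 4670 of 5039 barcodes, and the cells used had 2000 or more UMIs. No doublet caller was run.

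UMIs were summed over the cells of a group, divided by the sum of all genes and given as CPM with exact Poisson intervals. Ratios have exact conditional binomial intervals and shares exact Clopper-Pearson intervals. With 1 library per condition there was no test. A group at 0 was set at 3 counts over the group for a ratio, which is then a bound. The interferon-high cells and the gene lists were chosen with earlier results of these data known. Named genes were the list genes by role, genes of other lists called in both libraries, and the 10 genes in each direction with the largest smaller ratio of the 2 libraries, leaving out score, mitochondrial, ribosomal and unnamed genes. Scripts used Python 3.11.15, numpy 2.4.6 and scipy 1.17.1, with edgeR 4.0.16 for TMM factors as an alternative, and were tested on simulated data. Genes were matched by symbol to RefSeq promoters and by identifier to GENCODE positions. The listed genes *Oas1b*, *Mx1*, *Mx2*, *Gbp11*, *Mnda*, *Pyhin1*, *Cxcl11*, *Gm4955*, *Gm12250*, *Pydc3* and *Pydc4* were not analysed here, and 1 listed gene is not reported here.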

Additional observations from a re-analysis of the deposited data

How the results depend on the processing

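The counts of higher genes changed less with the processing than those of lower genes. Against 151 (Ctrl), 169 (LP1) and 135 (both) higher genes, a minimum of 50 CPM gave 46, 52 and 44, and the other 12 settings stayed within 1.5 times. The top 2.5% gave 218, 249 and 182, the top 10% 109, 118 and 100, and 5 CPM 201, 215 and 169. Ratios of the genes called in both libraries often left their counting intervals. This held for 220 of 299 values with the top 2.5%, 213 of 302 with the top 10% and 145 of 300 after thinning. With TMM it held for 0 of 302. Lower genes, 90, 62 and 17, became 332, 251 and 68 with the top 2.5% of cells, 197, 170 and 37 at 5 CPM and 6, 5 and 3 at 50 CPM. The top 10% gave 40 and 30 in the libraries, thinning to 2000 UMIs 154 and 177, means over cells 145 in Ctrl, and leaving out cells of very high UMIs 150 in Ctrl and 31 in both. The interferon list median (2.00 and 2.04) was 2.30 and 2.46 with the top 2.5%, 1.60 and 1.60 with the top 10%, 1.72 and 1.78 against all other cells, 1.69 and 1.58 after thinning, and 1.78 and 1.88 with the 20-UMI minimum on the zero cells alone, a setting added after the data were seen. The score gene median was 6.03 and 6.70 when each gene was left out of the score, and the score level 4591 and 4178 CPM in UMIs that did not choose the cells. At 50 CPM or more the correlation was 0.911 (Pearson) and 0.765 (Spearman). The median share of interferon-high cells with a UMI over 13 genes was 50.5 and 63.6% at own depth and 18.2 and 19.0% at 1000 UMIs. Directions turned for *Lcn2* in Ctrl (0.40), *Prc1* (0.95) and *Top2a* (0.35) in LP1 without cycling cells, and for *Plk1* (0.60) and *Batf2* (-0.14) in LP1 after thinning; the cause was not tested. Without cycling cells the G2/M list median went from -0.64 to -0.04 in Ctrl and from -0.78 to 0.15 in LP1, and the dendritic list median in LP1 went from -0.33 to 0.35, and to 0.63 against all other cells. TMM raised every ratio by 0.05, and medians of ratios raised them by 0.10 in Ctrl and 0.09 in LP1. No paired analysis was possible because each condition is 1 library without replicate numbers. Depth limits transcripts near 1 UMI per cell group, such as the interferon ligands.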
